A study of Mus musculus with 6 samples.

Results

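Fibrillar and fibril-associated collagens are followed here in Mvt1 cells, through 10 genes out of the 14765 that the deposited annotations name. The 10 genes were taken by name, with earlier results of these data known: Col1a1, Col1a2, Col3a1, Col5a1, Col5a2, Col5a3 and Col11a2, which encode chains of fibrillar collagens I, III, V and XI, and Col12a1, Col14a1 and Col16a1, which encode chains that associate with fibrils. Reads annotated to each symbol were summed in each library and compared between CD24+ and CD24- cells, and each chain was also read against its partners. In the CD24+ libraries 8 of the 10 genes were higher and 2 were lower, where 23.8% of all tested genes were higher and 22.3% lower, and 3 of the 8 (Col1a1, Col1a2 and Col14a1) had too few reads in CD24- cells to have been tested unless they were higher in CD24+ cells. Col5a2 rose most, 16.6-fold (from 7.15 ± 0.580 to 118 ± 15.8 CPM, SD over 3 libraries in each group), followed by Col3a1 (13.2-fold) and Col12a1 (7.53-fold). The order changed when median coverage, raised by 10 after the study's methods, was taken in place of counts, with log2 fold-changes of 0.59, 0.74 and 0.72. The added 10 shrinks the changes of genes at low coverage. Median coverage of Col5a2 was 0 in each CD24- library and 5.667, 4 and 5.5 in the CD24+ libraries. In the CD24+ libraries it was 9.5, 5.333 and 10.33 for Col3a1 and 5.667, 8.667 and 7.833 for Col12a1. The cause of the changed order was not tested. The 2 that fell were Col5a3, an alternative chain of collagen V, and Col11a2, a chain of collagen XI.

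Mvt1 is a mammary carcinoma cell line from the FVB/N mouse strain, derived from a tumor of a mouse carrying c-Myc and VEGF transgenes, and both groups descend from it. Cells were stained for CD24 at the surface and sorted into CD24- and CD24+ cells, and RNA came from 3 plates of adherent cells per group, grown in DMEM with 10% fetal bovine serum under 5% CO2, with no treatment described for either group. A single sort is described, so the p-values reflect how plates of the same sorted cells vary, and what goes with CD24 cannot be told apart from other differences that arose between the 2 groups. These are bulk libraries, in which fewer expressing cells and less RNA per cell cannot be told apart.

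Fibrillar collagens are made of chains whose middle part repeats the unit Gly-X-Y, wound as a triple helix and packed side by side into fibrils. Collagens I and III form the bulk of fibrils in soft tissue, while collagens V and XI sit inside them and are known for starting fibrils and limiting their width. Collagens XII and XIV bind to the fibril surface through a short helix and carry large non-collagenous arms, and in breast tissue the fibrillar matrix is made mainly by stromal fibroblasts.

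The libraries held 9046025 to 25692147 mapped reads, of which 71.8% to 74.3% were annotated to a gene, and CD24+ replicate 1 was the shallowest. Values are in CPM, edgeR's unit for counts scaled to the reads annotated to genes in a library, here with TMM factors. CD24- replicate 3 stood apart from the other CD24- libraries (chi-square per degree of freedom 9.81 and 11.4, against 1.71 between replicates 1 and 2), while the CD24+ libraries differed from each other by 9.33 to 15.2. Cd24a, the gene of the sorted protein, had 12.1, 11.5 and 6.99 CPM in the CD24- libraries and 73.3, 85.5 and 72.5 CPM in the CD24+ libraries. The difference was 2.91 on the log2 scale (SE 0.17, adjusted p = 5.39e-07, edgeR with Benjamini-Hochberg adjustment), in the direction of the labels. SE, a standard error, is here and below the size of the log2 fold-change divided by the square root of the test's F statistic. Of 11125 genes tested, 46.1% passed an adjusted p of 0.05 in either direction, 23.8% as higher and 22.3% as lower in CD24+ cells, and the 3 values of each group did not overlap for 57.3%. Members that pass the test, or whose groups do not overlap, are therefore to be read against a background in which such outcomes are common.

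The way the reads were mapped bears on collagen genes in particular. Reads of 47 nt were matched exactly to the genome, so a read of spliced message is counted only if it lies whole inside an exon. Helix exons of fibrillar collagens encode whole Gly-X-Y units and are short. In the 7 fibrillar genes, 183 of 331 helix exons were 54 nt long, each holding only 8 possible read positions, and 40 were 45 nt long, holding none. The exons below are neighbours in the messages of Col3a1 and Col5a1, taken from GENCODE M21 and shown with the glycine codons in capitals because they show which part of a helix could be counted.

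Col3a1 exon 11: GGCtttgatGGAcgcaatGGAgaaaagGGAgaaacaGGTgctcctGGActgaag
Col3a1 exon 12: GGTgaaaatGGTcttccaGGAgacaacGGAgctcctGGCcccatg
Col5a1 exon 19: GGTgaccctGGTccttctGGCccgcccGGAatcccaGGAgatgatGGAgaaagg
Col5a1 exon 20: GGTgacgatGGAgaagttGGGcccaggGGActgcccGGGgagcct

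Exon 11 of Col3a1 and exon 19 of Col5a1 each encode 6 Gly-X-Y units and received 50 and 111 reads over the 6 libraries. Exons 12 and 20 encode 5 units, are shorter than a read and received 0. Over all 40 helix exons of 45 nt the number of reads was likewise 0, which the matching fixes, and the 183 exons of 54 nt together received 2359.

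**Figure D1:**
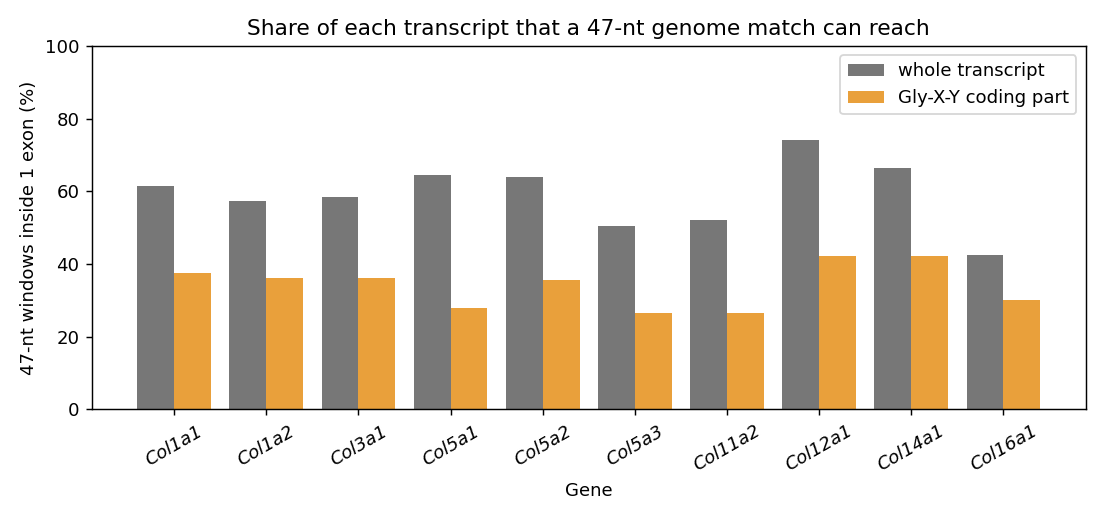
Percent of all 47-nt windows of each transcript that lie whole inside an exon (gray) and the same for the part that encodes Gly-X-Y units (orange), by gene, from 1 GENCODE M21 transcript per gene. Col12a1 is the most reachable transcript at 74.2% and Col16a1 the least at 42.4%, and for each gene the Gly-X-Y part is less reachable than the whole.

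Between 42.4% (Col16a1) and 74.2% (Col12a1) of the 47-nt windows of a transcript lay whole inside an exon, as the plot of reachable windows shows. For the Gly-X-Y part this share ran from 26.5% in Col11a2 to 42.1% in Col12a1 and Col14a1. The longest uninterrupted Gly-X-Y run had 337 to 344 units in the 7 fibrillar chains, 32 in Col12a1 and Col14a1, and 52 in Col16a1, whose helix is broken into 14 runs of at least 10 units. Levels of different collagens are therefore ranked below as CPM per 1000 windows that lie inside an exon, while plain CPM says only how much of a library was counted, and each gene's change between groups needs no such scaling.

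The most counted coding reads of a pair of chains show what a count consists of. Those of Col3a1, which rose, and Col5a3, which fell, came from the helix and are written below as deposited, turned to the coding strand where needed, with glycine codons in capitals.

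Col3a1: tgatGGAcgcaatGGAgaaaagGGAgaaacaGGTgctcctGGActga
Col5a3: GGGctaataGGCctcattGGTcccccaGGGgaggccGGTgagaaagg

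The Col3a1 read lay in exon 11, printed above, and was counted 1, 1 and 0 times in the CD24- libraries and 2, 6 and 26 times in the CD24+ libraries. The Col5a3 read, in exon 59 of 67, had 2, 1 and 1 counts in CD24- cells and 0 in each CD24+ library. A count of a whole gene is thus the sum of many sequences seen a few times each, 1635 distinct ones for the 3353 reads of Col3a1 in CD24+ replicate 3.

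**Figure D2:**
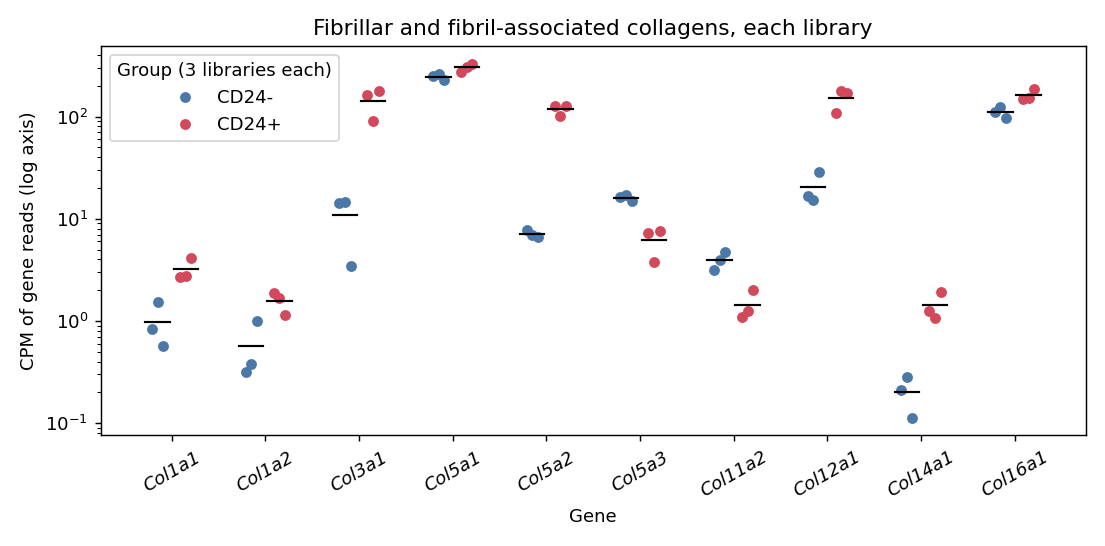
CPM of each of the 10 collagen genes in each library, on a log axis, with CD24- libraries in blue, CD24+ libraries in red and a black bar at the mean of each group of 3. The groups do not overlap for any of the 10 genes, and the widest separation is that of Col5a2, with 6.65 to 7.79 CPM against 100.2 to 128 CPM.

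All 10 genes passed the filter on low counts, and all 10 passed the test at an adjusted p of 0.05, where the background is 46.1% of tested genes. Neither outcome is independent of the choice of genes, since the 10 were taken with earlier results of these data known. Of 11 other fibrillar and fibril-associated chains, none passed the filter. The groups overlapped for none of the 10, while they lay apart for 57.3% of tested genes. Col1a1, Col1a2 and Col14a1 reached the filter through the CD24+ libraries, since only 1, 1 and 0 of their CD24- libraries were above 1 CPM. Genes that enter in that way had to differ in this direction, and these 3 add nothing to the count of increases. Of the other 7, 5 rose and 2 fell, with log2 fold-changes from -1.39 to 4.04 and a median of 0.57, beside a median of 0.02 over all tested genes. The plot of the members by library sets the 10 genes side by side.

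Collagen I, the main collagen of most connective tissue, is a trimer of α1 and α2 chains encoded by Col1a1 (chromosome 11 of GRCm38, 94936224 to 94953042, plus strand) and Col1a2 (chromosome 6, 4504814 to 4541544, plus strand). Its messages were scarce in both groups. Col1a1 had 0.842, 1.52 and 0.563 CPM in the CD24- libraries, from 8, 16 and 5 reads, and 2.67, 2.77 and 4.14 CPM in the CD24+ libraries, from 17, 49 and 79 reads. Every CD24+ library was above every CD24- library, and the difference was 1.71 on the log2 scale (SE 0.36, adjusted p = 0.00311, edgeR with Benjamini-Hochberg adjustment). Col1a2 had 0.316, 0.379 and 1.01 CPM in CD24- cells and 1.89, 1.69 and 1.15 CPM in CD24+ cells, from 3 to 30 reads per library. Its highest CD24- value, in replicate 3, lay just below its lowest CD24+ value. The message was higher in CD24+ cells by 1.43 on the log2 scale (SE 0.45, adjusted p = 0.0247, edgeR with Benjamini-Hochberg adjustment). This call was not held by DESeq2 (log2 fold-change 1.45, adjusted p = 0.0616) or without CD24- replicate 1 (0.105), CD24- replicate 2 (0.101), CD24+ replicate 1 (0.0658) or CD24+ replicate 2 (0.0764) in edgeR, where the log2 fold-changes were 1.15 to 1.33. Without CD24- replicate 3 the log2 fold-change was 2.08 (adjusted p = 0.00524, edgeR).

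Collagen III, a homotrimer that co-assembles with collagen I in extensible tissue, is encoded by Col3a1 (chromosome 1, 45311538 to 45349706, plus strand). Col3a1 had 14.2, 14.7 and 3.49 CPM in the CD24- libraries and 161, 90.0 and 176 CPM in the CD24+ libraries. The lowest CD24+ library was far above the highest CD24- library, and within each group one library lay well below the others, CD24- replicate 3 and CD24+ replicate 2. Col3a1 was higher in CD24+ cells by 3.69 on the log2 scale (SE 0.39, adjusted p = 3.08e-05, edgeR with Benjamini-Hochberg adjustment), and without CD24- replicate 3 it was 3.29 (adjusted p = 7.95e-06 from the same test). Of all tested genes, 1.2% had a larger log2 fold-change. Exons of Col3a1 overlap those of Gm47302 in the annotation, and the counts carry no strand, so reads of the 2 cannot be told apart there.

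Collagen V is a minor fibrillar collagen found inside collagen I fibrils, and its common form joins α1 and α2 chains, from Col5a1 (chromosome 2, 27886425 to 28039514, plus strand) and Col5a2 (chromosome 1, 45374321 to 45503282, minus strand). Col5a1 took the most reads of the 10 genes in both groups, which is no comparison of levels, with 250.1, 260.3 and 226 CPM in the CD24- libraries and 274, 303 and 329.6 CPM in the CD24+ libraries. The groups lay close together without overlapping, and the rise was 1.23-fold (log2 fold-change 0.30, SE 0.09, adjusted p = 0.0225, edgeR with Benjamini-Hochberg adjustment). This call was lost in edgeR without CD24- replicate 1 (log2 fold-change 0.31, adjusted p = 0.0639), CD24- replicate 3 (0.25, adjusted p = 0.0553) or CD24+ replicate 3 (0.22, adjusted p = 0.117), and when each distinct sequence was counted once (0.22, adjusted p = 0.0673). Exons of Col5a1 overlap those of 2810430I11Rik and Gm13372, and 26.0% of tested genes had a larger log2 fold-change.

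Col5a2 had 7.79, 7.01 and 6.65 CPM in the CD24- libraries and 128, 100.2 and 127 CPM in the CD24+ libraries. Its libraries agreed closely within each group, with a coefficient of variation of 8.12% in CD24- cells and 13.3% in CD24+ cells. It was higher in CD24+ cells by 4.04 on the log2 scale (SE 0.14, adjusted p = 2.03e-08, edgeR with Benjamini-Hochberg adjustment), and 0.611% of tested genes had a larger one. It stayed between 3.98 and 4.15 when each library was left out in turn. Col5a2 and Col3a1 lie tail to tail on chromosome 1, with 24.6 kb between them in GRCm38.

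Col5a3 (chromosome 9, 20770050 to 20815067, minus strand) encodes the α3 chain, which replaces a partner in a rarer form of collagen V and is known to have a restricted pattern of expression. It moved against the other collagen V chains, from 16.2, 16.9 and 14.8 CPM in the CD24- libraries to 7.24, 3.78 and 7.59 CPM in the CD24+ libraries. Each CD24+ library was below each CD24- library, with CD24+ replicate 2 the lowest. The level fell 2.57-fold (log2 fold-change -1.39, SE 0.23, adjusted p = 0.000784, edgeR with Benjamini-Hochberg adjustment), and 3.27% of tested genes had a lower log2 fold-change.

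Col11a2 (chromosome 17, 34039437 to 34066685, plus strand) encodes the α2 chain of collagen XI, the counterpart of collagen V in cartilage. It had 3.16, 3.98 and 4.73 CPM in the CD24- libraries and 1.10, 1.24 and 1.99 CPM in the CD24+ libraries, from 7 to 42 reads per library. No CD24+ library reached the lowest CD24- library, and the difference was -1.37 on the log2 scale (SE 0.29, adjusted p = 0.00304, edgeR with Benjamini-Hochberg adjustment). Only 122 of its 181 reads (67.4%) lay in an exon of one of its coding transcripts, the lowest share among the 10 genes, so its level is the least tied to spliced message. Counted by exonic reads alone it still fell and passed the test.

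Collagen XII, the FACIT chain encoded by Col12a1 (chromosome 9, 79598991 to 79718831, minus strand), is a homotrimer on the surface of collagen I fibrils that is known for its presence in dense and load-bearing matrix. Col12a1 had 16.7, 15.3 and 28.9 CPM in the CD24- libraries and 109, 177 and 172 CPM in the CD24+ libraries. CD24- replicate 3 was the highest CD24- library here, where it had been the lowest for Col3a1. All CD24+ libraries were higher, on average by 2.93 on the log2 scale (SE 0.25, adjusted p = 6.26e-06, edgeR with Benjamini-Hochberg adjustment), and 3.27 without CD24- replicate 3 (adjusted p = 1.24e-06 from the same test).

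Collagen XIV, a close relative of collagen XII, is encoded by Col14a1 (chromosome 15, 55307750 to 55520803, plus strand). It had 2, 3 and 1 reads in the CD24- libraries (0.210, 0.284 and 0.113 CPM) and 8, 19 and 37 reads in the CD24+ libraries (1.26, 1.07 and 1.94 CPM). The groups did not overlap, and the difference was 2.76 on the log2 scale (SE 0.50, adjusted p = 0.00129, edgeR with Benjamini-Hochberg adjustment). Pooled over libraries, 6 against 64 reads give a ratio of 7.15 with an exact 95% interval from 3.11 to 20.2, which covers counting error only. Counted by exonic reads alone, Col14a1 and Col1a2 fell below the filter and were not tested.

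Col16a1 (chromosome 4, 130047840 to 130099283, plus strand) encodes the chain of collagen XVI, a minor collagen with an interrupted helix that is found near fibrils and at cell contacts. It had 111, 123 and 96.0 CPM in the CD24- libraries and 149.8, 152 and 187 CPM in the CD24+ libraries. All CD24+ libraries were higher, by a modest step of 1.48-fold (log2 fold-change 0.57, SE 0.12, adjusted p = 0.00257, edgeR with Benjamini-Hochberg adjustment). Of tested genes, 15.1% had a larger log2 fold-change.

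All reads of a gene, scaled to its windows inside an exon, gave an order of levels that differed between the groups. In CD24- cells Col16a1 (50.3 ± 6.20 CPM per 1000 windows, SD, n = 3) and Col5a1 (45.5 ± 3.30) were highest, and their libraries overlapped. Next came Col5a3 (5.21 ± 0.352), then Col3a1 (3.35 ± 1.96), Col12a1 (2.38 ± 0.876) and Col5a2 (1.70 ± 0.138), where Col3a1 overlapped Col12a1 and Col12a1 overlapped Col5a2. Col11a2 (1.27 ± 0.252), Col1a1 (0.270 ± 0.136), Col1a2 (0.188 ± 0.127) and Col14a1 (0.0475 ± 0.0202) followed, and of these only Col1a1 and Col1a2 overlapped as neighbours. In CD24+ cells Col16a1 (74.4 ± 9.47) stood above Col5a1 (56.0 ± 5.17), whose libraries overlapped those of Col3a1 (44.1 ± 14.2), which in turn overlapped those of Col5a2 (28.2 ± 3.75). Col12a1 (17.9 ± 4.46), Col5a3 (2.03 ± 0.688) and Col1a1 (0.884 ± 0.227) followed without overlap, while Col1a2 (0.520 ± 0.125), Col11a2 (0.462 ± 0.153) and Col14a1 (0.334 ± 0.107) each overlapped the next. With exonic reads alone, Col16a1 (40.5 ± 5.51) was level with Col5a1 (40.8 ± 3.35) in CD24- cells, Col12a1 no longer overlapped Col5a2 there, and Col11a2 (0.273 ± 0.142) fell to the level of Col14a1 (0.278 ± 0.118) in CD24+ cells. The place of Col16a1 above Col5a1 also turns on the 3′ end, where Col5a1 had few reads. Over the first 3 of 4 equal segments of the transcript, Col5a1 (65.2 and 80.6 CPM per 1000 windows in CD24- and CD24+ cells) was above Col16a1 (40.9 and 68.2).

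**Figure D3:**
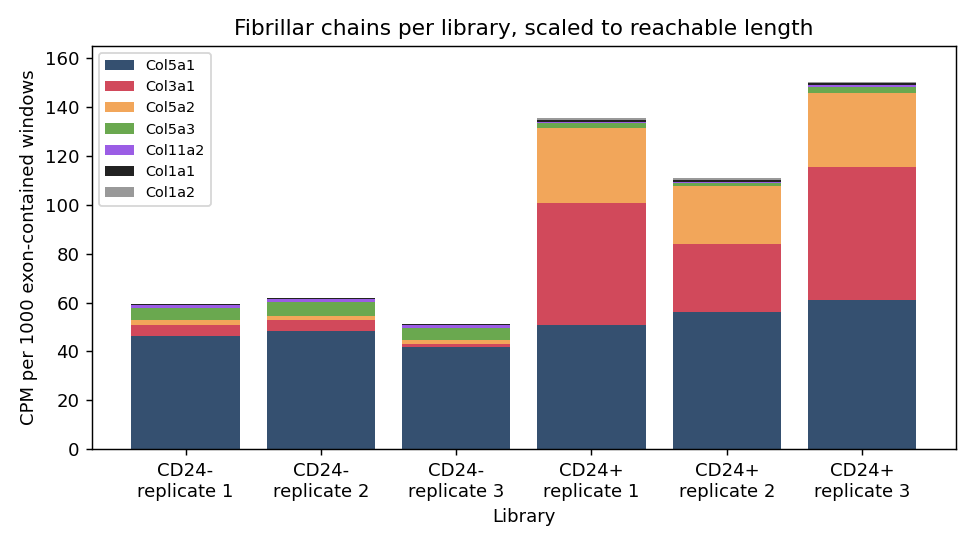
CPM per 1000 windows that lie inside an exon, stacked over the 7 fibrillar chains, for each of the 6 libraries. The CD24- stacks reach 51.4 to 61.8 and are mostly Col5a1, and the CD24+ stacks reach 111 to 150.4 and are mostly Col5a1, Col3a1 and Col5a2.

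Among the 7 fibrillar chains together, the level was 57.5 ± 5.47 CPM per 1000 windows (SD, n = 3) without CD24 and 132 ± 20 (SD, n = 3) with it. Col5a1 made up 78.2%, 78.1% and 81.5% of this sum in the CD24- libraries and 37.5%, 50.6% and 40.7% in the CD24+ libraries. Its own level changed little, so the drop in its share goes with the higher levels of other chains in the plot of the fibrillar chains. Col3a1 took 5.64% ± 3.06 of the sum in CD24- cells and 32.8% ± 6.58 in CD24+ cells, and Col5a2 took 2.97% ± 0.234 and 21.4% ± 1.27. Col5a3 went from 9.08% ± 0.272 to 1.5% ± 0.34. The chains of collagen I together made up 0.801% ± 0.205 and 1.07% ± 0.106 of the fibrillar sum. Message for the collagen that usually forms the bulk of a fibril was thus a minor part in both groups. The groups did not overlap for Col1a1 and Col1a2 together but did for the share of each alone. Both genes had entered the test through the CD24+ libraries, so the separation of their joint share adds no support. With 3 libraries a side the smallest p of an exact two-sided permutation test is 0.1, which is what each chain of collagens III and V gave for its share.

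**Figure D4:**
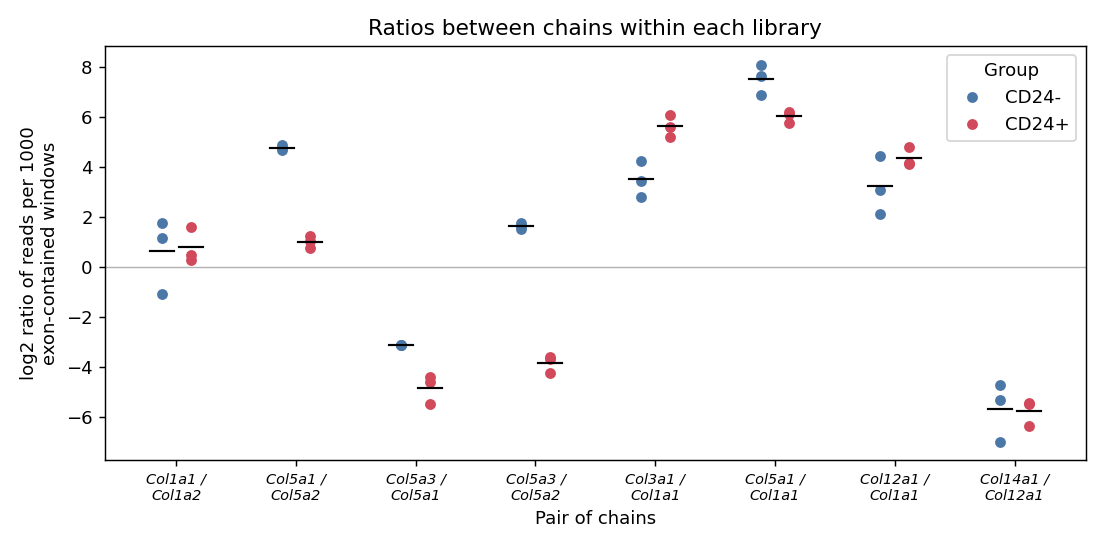
log2 ratio between the levels of chain pairs (CPM per 1000 windows inside an exon) in each library, with CD24- libraries in blue, CD24+ libraries in red and a black bar at the mean of each group. The groups lie apart for 5 of the 8 ratios, widest for Col5a3 / Col5a2 (means 1.62 and -3.85), and overlap for Col1a1 / Col1a2, Col12a1 / Col1a1 and Col14a1 / Col12a1. Each ratio is built from genes whose own groups lie apart, as those of 57.3% of tested genes do. No share for other pairs of genes is given.

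Ratios of chain partners within a library need no scaling between libraries. Col5a1 exceeded Col5a2 by 4.65, 4.86 and 4.73 on the log2 scale in the CD24- libraries and by 0.73, 1.24 and 1.02 in the CD24+ libraries. As geometric means the ratio was 26.8 in CD24- cells and 2 in CD24+ cells. The difference in log2 ratio was -3.75, with no overlap (exact two-sided permutation p = 0.1, the smallest possible, and 0.16 after Benjamini-Hochberg adjustment over 8 ratios). Taken per nucleotide of transcript in place of per window, the mean log2 ratios were 4.76 and 1.01.

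Col5a3 relative to Col5a1 was -3.13, -3.13 and -3.12 on the log2 scale in CD24- cells, almost equal among libraries, and -4.42, -5.50 and -4.62 in CD24+ cells. Col5a3 against Col5a2 turned over, since Col5a3 was 3.07 times Col5a2 in CD24- cells and Col5a2 was 14.4 times Col5a3 in CD24+ cells. That difference, -5.47 in log2 ratio, was the widest of the 8. It follows from the ratios of Col5a3 to Col5a1 and of Col5a1 to Col5a2, whose product this ratio is, and is no separate result. Col3a1 exceeded Col1a1 11.3-fold in CD24- cells and 48.9-fold in CD24+ cells, a difference of 2.12 in log2 ratio, and Col5a1 exceeded Col1a1 183-fold and 64.5-fold, a difference of -1.51. For the ratios of this paragraph the groups did not overlap either, with an exact two-sided permutation p of 0.1 each and 0.16 adjusted. Both ratios to Col1a1 rest on 8, 16 and 5 Col1a1 reads in the CD24- libraries. Col1a1 had entered the test through the CD24+ libraries, and its rise lowers any ratio to it. The fall of Col5a1 relative to Col1a1 therefore adds no support.

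For 3 ratios the groups overlapped. Col1a1 against Col1a2, the partners of collagen I, had log2 ratios of 1.16, 1.75 and -1.10 in CD24- cells and 0.25, 0.46 and 1.59 in CD24+ cells (exact two-sided permutation p = 0.9). The low value came from CD24- replicate 3, with 5 reads of Col1a1 and 9 of Col1a2, and no difference between the groups was detected. Col12a1 against Col1a1 differed by 1.14 in log2 ratio (exact two-sided permutation p = 0.3), by 0.58 without CD24- replicate 2 and by 1.75 without CD24- replicate 3, whose value of 4.44 was the one that overlapped the CD24+ libraries. Col14a1 against Col12a1 differed by -0.07 (exact two-sided permutation p = 0.8). Per window Col12a1 exceeded Col14a1 51.6-fold in CD24- cells and 54.3-fold in CD24+ cells. The CD24- value was 32.8-fold without replicate 3, which held 1 Col14a1 read.

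**Figure D5:**
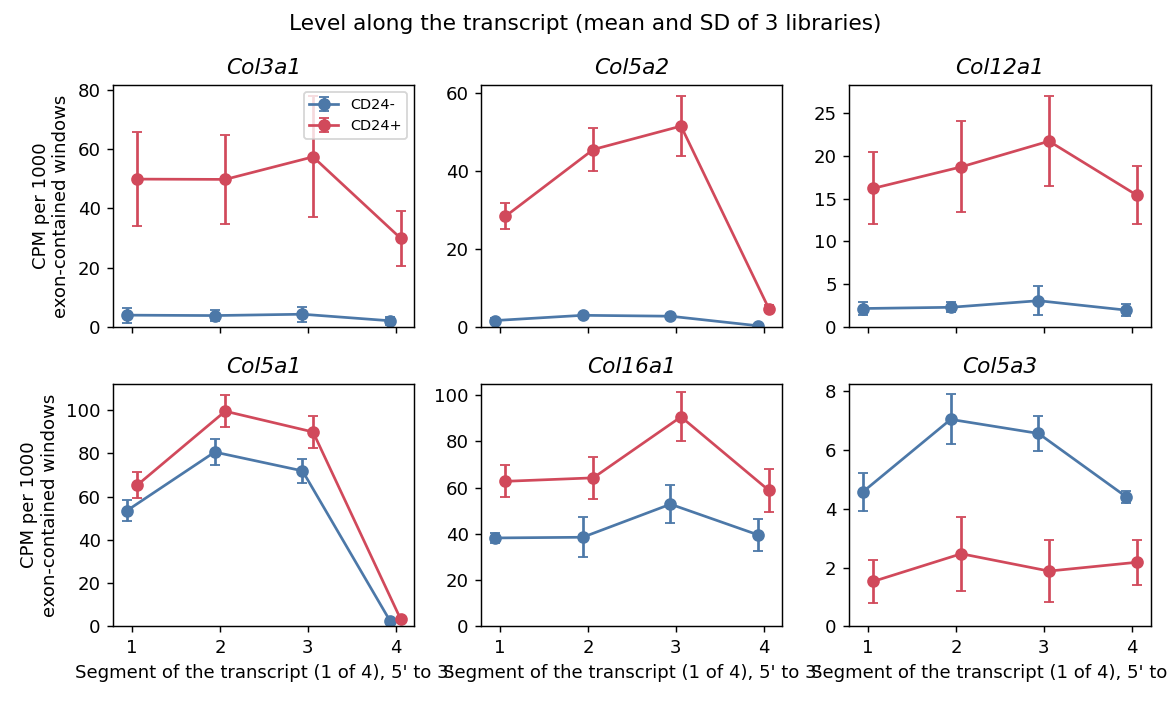
CPM per 1000 windows inside an exon in each of 4 equal segments of the transcript, 5′ to 3′, as mean and SD of 3 libraries, for 6 genes and with a vertical axis of its own for each. The 2 groups keep their order in each segment. In CD24+ cells the level drops from the third to the last segment for Col3a1, Col5a2, Col12a1, Col5a1 and Col16a1, most for Col5a1 (89.9 to 3.14).

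For the 5 genes that rose with the most reads, the ratio between groups varied little along the transcript. For Col3a1 the CD24+ level was 12.4, 12.8, 13.2 and 14.1 times the CD24- level in 4 equal segments from 5′ to 3′. For Col5a2 these ratios were 16.9, 15.1, 18.4 and 14.4, for Col12a1 7.46, 8.07, 7.05 and 7.78, for Col5a1 1.22, 1.23, 1.25 and 1.37, and for Col16a1 1.64, 1.67, 1.72 and 1.49. Col5a3 was lower in CD24+ cells by 2.99, 2.85, 3.50 and 2.03 times, a wider range. In none of the segments of these 6 genes did the groups overlap. For Col1a1, Col1a2, Col11a2 and Col14a1, with few reads per segment, the groups overlapped in at least 1 segment each. The level itself was uneven, as the plot along the transcript shows, and in the last segment of Col5a1, which is 3′ UTR, it was 2.29 CPM per 1000 windows in CD24- cells against 71.9 in the segment before. Reads that matched coding transcripts of Col5a1 numbered 18392 with its own annotation and 21376 with any annotation, and whose message the others are cannot be told apart where genes share exons.

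Most reads of the 10 genes came from exons. The exonic share of all reads was 99.0% for Col3a1, 98.8% for Col5a2 and Col12a1, 97.2% for Col5a3, 89.6% for Col5a1 and 84.8% for Col16a1. For Col16a1 it was 79.0% to 81.3% in the CD24- libraries and 83.8% to 92.0% in the CD24+ libraries, the only one of the 10 genes whose groups did not overlap (exact two-sided permutation p = 0.1, and 0.75 adjusted over 10 genes). Exonic reads came about equally from both strands, from 48.2% to 52.2% on the coding strand for the 6 genes with the most reads, as an unstranded library gives.

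Promoters are shown for Col3a1, one of the genes that rose strongly, and Col5a1, one of the genes that were high in both groups. Windows of 250 bases before to 50 after the start were taken from RefSeq (GRCm38.p6), which matched 6 of the 10 genes. Capitals mark the letters of a TATA box (TATAAA) or a GC box (GGGCGG), searched on both strands at any position in the window.

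Col3a1, chr1:45311288-45311587, plus strand: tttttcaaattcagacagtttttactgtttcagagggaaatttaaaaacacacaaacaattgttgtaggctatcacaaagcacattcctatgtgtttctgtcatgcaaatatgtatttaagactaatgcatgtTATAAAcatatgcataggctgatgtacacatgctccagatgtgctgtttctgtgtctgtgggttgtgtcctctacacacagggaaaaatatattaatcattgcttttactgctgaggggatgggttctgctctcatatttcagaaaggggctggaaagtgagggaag
Col5a1, chr2:27886175-27886474, plus strand: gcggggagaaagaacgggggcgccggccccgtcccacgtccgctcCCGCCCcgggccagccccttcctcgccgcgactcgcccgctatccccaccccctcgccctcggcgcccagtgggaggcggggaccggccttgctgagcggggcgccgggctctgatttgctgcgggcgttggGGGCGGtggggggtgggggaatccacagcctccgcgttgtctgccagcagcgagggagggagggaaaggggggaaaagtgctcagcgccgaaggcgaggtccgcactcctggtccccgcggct

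The Col3a1 window was 37.7% G and C, with 1 TATAAA and no GGGCGG, and the Col5a1 window was 75.0% G and C, with GGGCGG once on each strand and no TATAAA. Of the 6 collagen windows, 2 held TATAAA (Col3a1 and Col11a2), which 13.6% of 32851 promoter windows hold, and 5 held GGGCGG, which 35.7% hold. A CCAAT box (CCAAT) was found in 3 of them, Col1a2, Col5a3 and Col16a1, and in 37.4% of all windows. Such matches describe the letters of the window, at any distance from the start, and no binding was measured.

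The other fibrillar and fibril-associated chains were nearly silent. Of 11 such genes, none passed the filter on low counts, and no reads at all were annotated to Col20a1, Col21a1 and Col22a1. Col27a1, a fibrillar chain of cartilage, had 0.421, 0.284 and 0.225 CPM in the CD24- libraries, from 4, 3 and 2 reads. In the CD24+ libraries it had 0.472, 1.58 and 1.78 CPM, from 3, 28 and 34 reads, without overlap but with the lowest value close to the highest CD24- value. It was below the filter of the edgeR test, and DESeq2, with its own filtering, gave a log2 fold-change of 2.09 (adjusted p = 0.0249, DESeq2 with Benjamini-Hochberg adjustment).

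The genes below are from lists of collagen assembly, and those described as higher or lower passed the same edgeR test, with a largest Benjamini-Hochberg adjusted p of 0.0356 (Itga10).

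Enzymes and chaperones that fold and modify collagen chains mostly moved upward. Of 16 tested, 12 rose, 0 fell and 4 did not pass, and 1 of the 12, P3h3, passed the filter only through the CD24+ libraries. Without it 11 of 15 rose (median log2 fold-change 0.44), beside 23.8% of all tested genes. The largest increase was that of Fkbp10, a prolyl isomerase of the endoplasmic reticulum, with 6.63, 5.68 and 5.41 CPM in the CD24- libraries and 73.8, 63.7 and 62.0 CPM in the CD24+ libraries (log2 fold-change 3.48, SE 0.13, adjusted p = 3.18e-08, edgeR with Benjamini-Hochberg adjustment). The 4 that did not pass were P4ha1 (log2 fold-change 0.13), a prolyl 4-hydroxylase, Plod3 (0.00), a lysyl hydroxylase, Ppib (-0.11), a cyclophilin, and Mia3 (-0.01), which loads procollagen into transport carriers.

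Of 10 tested genes that trim, cross-link or help to trim fibrillar collagens, 3 rose, 1 fell and 6 did not pass (median log2 fold-change 0.16). The share called, 40%, was near the 46.1% of all tested genes, where 23.8% were called higher and 22.3% lower. Lox, a lysyl oxidase that cross-links fibrils, rose from 3.53 ± 0.558 to 46.4 ± 10.6 CPM (log2 fold-change 3.73), Loxl2, a related oxidase, from 6.19 ± 3.21 to 43.7 ± 13.8 CPM (2.79), and Pcolce, an enhancer of procollagen C-proteinase, from 220.4 ± 28.7 to 734 ± 69.9 CPM (1.73). Pcolce2, a second enhancer, fell from 109.6 ± 22.6 to 61.7 ± 11.8 CPM (log2 fold-change -0.82). Bmp1, the C-proteinase itself, did not pass, with 356 ± 14.7 and 336 ± 9.05 CPM (SD, n = 3 for each value).

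Of 6 tested genes for proteins that bind the fibril surface, Dcn, Bgn and Prelp passed the filter only through the CD24+ libraries. Of the other 3, 2 rose and 1 fell (median log2 fold-change 1.40), beside 46.1% of all tested genes called in either direction. Ogn, encoding osteoglycin, rose from 4.54 ± 1.90 to 88.7 ± 35.4 CPM (log2 fold-change 4.25), and Thbs1, encoding thrombospondin 1, from 194 ± 5.82 to 508 ± 133 CPM (1.40). The small proteoglycan genes Prelp, Dcn and Bgn had 0 to 2 reads in each CD24- library. In the CD24+ libraries Prelp had 19, 28 and 92 reads, Dcn 13, 18 and 59, and Bgn 10, 49 and 62, and all 3 were called higher. Tnxb, encoding tenascin-X, fell from 52.1 ± 8.02 to 22.6 ± 3.86 CPM (log2 fold-change -1.23, SD, n = 3 each).

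All 7 tested collagen receptor genes passed, but Itga1 and Itga2 had entered through the group in which they are high. Of the other 5, 4 were higher and 1 lower (median log2 fold-change 0.77), beside 23.8% and 22.3% of all tested genes. Mrc2, encoding the uptake receptor Endo180, rose from 17.8 ± 7.37 to 247 ± 35.0 CPM (log2 fold-change 3.78), Itga1 from 0.858 ± 0.209 to 4.71 ± 0.585 CPM (2.44), and Ddr2, a kinase activated by fibrillar collagen, from 59.4 ± 9.08 to 227 ± 24.7 CPM (1.94). Itga10 (0.77) and Itgb1 (0.34) rose less, and the groups of Itga10 overlapped. Itga2, the α chain of the epithelial collagen receptor, fell from 2.30 ± 0.384 to 0.751 ± 0.341 CPM (log2 fold-change -1.78), and Ddr1, the epithelial counterpart of Ddr2, from 77.4 ± 5.42 to 55.6 ± 3.37 CPM (-0.48, SD, n = 3 each).

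Among 14 tested transcription factors known to act on collagen genes, 5 rose, 0 fell and 9 did not pass (median log2 fold-change 0.10). The share called, 35.7%, all of it higher, stands beside 46.1% of all tested genes called in either direction and 23.8% called higher. The mesenchymal factors Prrx1 and Twist2 rose from 4.67 ± 0.0564 to 89.2 ± 15.3 CPM (log2 fold-change 4.26) and from 3.47 ± 0.449 to 36.2 ± 7.64 CPM (3.36). Cebpb (1.34), Scx, encoding the tendon factor scleraxis (0.63), and Smad3 (0.46) rose as well (SD, n = 3 each). General factors such as Sp1 (258 ± 4.18 and 246 ± 26.1 CPM) and the NF-Y subunit gene Nfya (52.8 ± 6.34 and 54.9 ± 1.76 CPM) did not pass, and Rfx1 (log2 fold-change -0.28) fell short in edgeR at an adjusted p of 0.0505.

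Markers of other cell types moved in both directions, and Dcn, Cdh5, Itgam and Acta2 among them passed the filter only through the group in which they are higher. Of all tested genes, 46.1% were called, 23.8% as higher and 22.3% as lower. Of 5 tested fibroblast markers 3 rose, Pdgfrb from 4.81 ± 1.24 to 66.6 ± 14.7 CPM (log2 fold-change 3.79), Dcn (4.71) and Pdgfra (0.87), and 2 fell, Fbln1 from 55.8 ± 7.44 to 8.25 ± 0.907 CPM (-2.79) and Ly6c1 (-0.80). The summed level of the 10 fibroblast markers ran from 169 to 233 CPM in the CD24- libraries and from 155 to 182 CPM in the CD24+ libraries. Most reads of that sum in CD24- cells were of Ly6c1 (113 to 156 CPM) and Fbln1 (47.5 to 62.1 CPM). Thy1 and Lum had 0 reads in every library, and Fap had 2 reads in all. Endothelial markers summed to 2.70 to 4.64 CPM and 0.786 to 2.04 CPM, with Cdh5 lower in CD24+ cells (log2 fold-change -3.23) and Tek not passing (-0.49). Immune markers summed to 46.9 to 80.9 CPM and 7.34 to 9.44 CPM, with Cd68 (-3.03) and Itgam (-6.85) lower and Ptprc, which marks leukocytes, at 2 reads in all.

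Luminal markers summed to 1847 to 2041 CPM in the CD24- libraries and 759 to 902 CPM in the CD24+ libraries. All 3 that were tested fell, beside 22.3% of all tested genes, Krt8 from 1229 ± 76.0 to 596 ± 60.8 CPM (log2 fold-change -1.04), Krt18 (-1.78) and Krt19 (-1.96). Epcam and Cdh1, markers of epithelium, had 6 and 2 reads over the 6 libraries, and Elf5 had 0, so the epithelial markers seen here were keratins 8, 18 and 19. Of the basal markers only Acta2, smooth muscle actin, was tested, and it rose from 0.551 ± 0.386 to 8.01 ± 3.83 CPM (3.87, SD, n = 3 each), with Krt5 and Krt14 at 1 and 3 reads in all. Trp63, which was not tested, had 0, 3 and 0 reads in the CD24- libraries and 7, 17 and 27 in the CD24+ libraries, without overlap in CPM. The part of these markers in the collagen differences was not tested.

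The genes whose profile over the 6 libraries lay nearest to each collagen were sought among genes at a mean log2 CPM of 3 or more, by the root mean square difference of log2 CPM centred over libraries. Nearest to Col5a2 were Ccnd2 (0.09), encoding cyclin D2, Syn3 (0.13) and Prrx1 (0.15). Among the nearest to Col3a1 were C130074G19Rik (0.25) and Trp53i11 (0.26), and nearest to Col12a1 were Gli3 (0.24), Pla2g4a (0.32) and Sorbs2 (0.33). Col5a1 lay nearest to Dag1 (0.03), Scd3 (0.03) and 2810474O19Rik (0.04), and Col16a1 to Ncoa1 (0.03), Cdkn1b (0.07) and Pmvk (0.07). Col5a3 lay nearest to Mertk (0.10), 6330442E10Rik (0.14) and 2310030G06Rik (0.17), and Col11a2 to Fbxo17 (0.17), Bscl2 (0.21) and Hdac6 (0.21). For the scarce chains these were Sox4, Rassf4 and Tap1 (0.19 to 0.22) for Col1a1, Jdp2, Aars and Mars (0.24 each) for Col1a2, and Anxa6, Sept5 and Dtx4 (0.14 to 0.17) for Col14a1. The 6 collagens that reached this level were not among the 3 nearest of another, and Col1a1, Col1a2, Col11a2 and Col14a1 were too low to be candidates. The 6 libraries share 1 contrast.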

How the data were processed

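Per the labels and the study's methods, mRNA of sorted Mvt1 cells was sequenced with an unstranded TruSeq kit. The authors trimmed reads by 2 nt at each end to 47 nt, collapsed identical ones, mapped them exactly to the genome (mm9 in the submitters' processing notes) and gave each 1 annotation. They deposited raw counts per distinct sequence. Exact matching omits reads over exon junctions and over variants between FVB/N and the reference.

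These counts were added up by annotation, and 14765 of the 16024 annotations name genes. Repeats, noncoding RNA and unannotated reads were left out. Genes passing filterByExpr were tested with edgeR 4.0.16 (TMM, quasi-likelihood F test, Benjamini-Hochberg over all tested genes, threshold 0.05) in R 4.3.3, after the script was tested on simulated data. Member reads were placed by exact match to GENCODE M21 transcripts and not to a genome sequence, and gene coordinates are GRCm38. Alternatives used DESeq2 1.42.0 and limma 3.58.1. Members and lists were chosen with earlier results of these data known. Named genes were the members, Cd24a, the largest called increase and decrease of each list, list genes in groups of 5 or fewer, and the 3 nearest genes, of which 1 is not reported here. P4ha1, Plod3, Ppib, Mia3, Bmp1, P3h3, Sp1, Nfya, Rfx1, Col27a1 and the markers with few reads were named after their values were seen.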

Additional observations from a re-analysis of the deposited data

How the results depend on the processing

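Over 15 alternatives the 10 collagens gave 142 values, of which 132 kept direction and call and none reversed. The other 10 kept direction but lost the call, all of them for Col1a2 and Col5a1. Col1a1, Col1a2 and Col14a1 gave 14, 12 and 12 of the values. Where low counts were filtered, these genes entered through the CD24+ libraries, so their direction adds nothing. All alternatives reuse the same 6 libraries, and 33.4% to 47.4% of all genes were called in them. How many of all genes kept their call is not given. With median coverage, quantile-normalized and raised by 10 after the study's methods and tested with limma, 6 collagens could be tested and 5 were called, 4 higher and 1 lower, beside 35.5% of 7834 genes called. The log2 fold-change was then 0.59 for Col5a2, 0.74 for Col3a1, 0.72 for Col12a1, -0.19 for Col5a3 and 0.17 for Col5a1 (adjusted p = 0.0551, limma). The median coverage of Col1a1, Col1a2, Col11a2 and Col14a1 was 0 in every library. The filter here was a median coverage of 1 in 3 libraries. Col5a2 reached it only through CD24+ libraries (0 in each CD24- library) and Col5a3 only through CD24- libraries (0, 0 and 0.3333 in CD24+). Col3a1, at 0 in CD24- replicate 3, and Col12a1, at 0 in CD24- replicates 1 and 2, needed CD24+ libraries to reach it. The calls of these genes add nothing to the count. Leaving out each library in turn left 8 to 9 collagens called, 6 to 7 of them higher and 2 lower, beside 36.1% to 47.4% of all genes called. It moved the difference between groups in the log2 ratio of Col1a1 to Col1a2 from 0.16 to between -0.69 and 0.73, reversed without CD24- replicate 3 (-0.69) and without CD24+ replicate 3 (-0.25). The difference between groups in the log2 ratio of Col14a1 to Col12a1 (-0.07) reversed when each distinct sequence was counted once (0.18) and without CD24- replicate 1 (0.11), CD24- replicate 2 (0.40) or CD24+ replicate 2 (0.23), and its lowest value was -0.73 without CD24- replicate 3. Both ratios overlapped between groups. DESeq2 called 1 further fibrillar or FACIT chain, Col27a1, as higher, and counted 4 processing, 6 fibril surface and 6 transcription factor genes as higher in place of 3, 5 and 5. It called 39.7% of 12761 genes, 2539 of them higher, and its list counts keep genes with few reads in CD24- cells. Folding genes called higher went from 12 to 11 without TMM and with the replicate block. Without TMM 1 transcription factor, Rfx1, was called lower (adjusted p = 0.0429, edgeR), and over all genes 2524 were higher and 2638 lower. Counting distinct sequences left 1550 genes lower and 0 collagens with separate exonic shares, and the median-coverage estimate gave 1310 higher and 1468 lower. The cause of these changes was not tested. Reads matched to a member's transcripts whatever their annotation, an alternative chosen after seeing the data, left 8 collagens tested and 8 called, as did exonic reads alone. In both settings 46.1% of all genes were called. The 8 include Col1a1, which in the main counts had entered through the CD24+ libraries. A filter of at least 1 CPM in 3 libraries kept the same number of genes as the main filter, 11125. The order of levels from exonic reads or the first 3 segments and the list counts without genes that entered through 1 group were also chosen after seeing the data.

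The replicate numbers share no stated plate or day, and same-numbered libraries correlated at 0.0143, -0.251 and -0.31 in their deviations from group means. With the replicate block 4493 of 11125 genes (40.4%) were called in place of 5130, and all 10 collagens, 8 higher and 2 lower. The 8 include Col1a1, Col1a2 and Col14a1, which had entered through the CD24+ libraries and add nothing to the count. Counts limit Col1a1, Col1a2, Col11a2 and Col14a1, which had 70 to 181 reads over the 6 libraries.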
